A study of Mus musculus with 6 samples.

Results

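A set of 10 regulators of blood and endothelial development was read in cardiac fibroblasts from mice with and without the histone demethylase KDM5B: the transcription factor genes *Tal1*, *Lyl1*, *Lmo2*, *Gata2*, *Runx1*, *Spi1*, *Myb* and *Gfi1*, and the surface protein genes *Cd34* and *Kit*. They were taken by symbol, 10 of the 34745 genes listed. In KDM5B-knockout mice a CRISPR deletion removes sequence containing the JmjC (catalytic) domain and shifts the reading frame. The KO group came from these mice and the WT group from their littermates. All were males 8 to 10 weeks old, all had myocardial infarction (MI), made by tying off the left anterior descending artery, and fibroblasts of the left ventricular wall were taken on Day 7 after MI, so there is no uninjured group. Each genotype gave 3 RNA-seq libraries. The sources used here do not say whether each library came from a separate animal or a pool, and the p-values therefore measure the spread between libraries.

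Blood and endothelium share a set of early regulators. TAL1 and LYL1 are basic helix-loop-helix proteins that bind E-boxes together with E proteins, and LMO2 joins them through LDB1 to GATA2, with the ETS factors FLI1 and ERG and with RUNX1 often bound nearby. In the embryo these factors act in hemogenic endothelium, and in the adult several stay on in blood stem and progenitor cells, while TAL1, LMO2 and GATA2 are also expressed in vascular endothelium. CD34 and KIT are used to isolate progenitors, but CD34 also marks capillary endothelium and some stromal cells, and KIT is high in mast cells.

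Of the 10 genes, 5 were higher in the libraries labelled KO. *Cd34* was 28.0-fold, *Gata2* 7.71-fold, *Lyl1* 3.54-fold, *Tal1* 2.93-fold and *Lmo2* 1.98-fold higher. *Spi1* and *Runx1* were lower, 1.46-fold and 1.18-fold, though *Runx1* lost its call in 8 of 14 other ways of processing. Neither was called when the libraries were scaled on cardiomyocyte and myeloid markers. That scaling was chosen after seeing the data and raised the median log2 fold change of all genes tested by 0.39. *Kit* was not called, and *Myb* and *Gfi1* had at most 6 counts in any library. Thus 8 of 10 passed the filter on low counts, and of these 5 were called higher and 2 lower (edgeR quasi-likelihood test, adjusted p under 0.05), where 17.7% of the 14084 genes tested were called higher, 12.5% lower and 30.2% in either direction. In each of these 8 genes the 3 KO values lay wholly above or wholly below the 3 WT values, which held for 24.7% (above), 22.4% (below) and 47% (either) of all genes tested. The median log2 fold change of the 8 was 1.27, against -0.02 over all genes tested.

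The libraries held 12025403 to 15329427 counts. *Kdm5b* itself was measured at 98.1, 107 and 105 CPM (counts scaled to library size) in KO 1, 2 and 3 and at 108, 129 and 123 CPM in WT 1, 2 and 3, a log2 difference of -0.22 (SE 0.07, edgeR adjusted p = 0.0574). Counts over the whole gene do not isolate the deleted part. This check therefore left the knockout unverified, and the groups are called by their labels. The labelled cell type was checked on marker genes: the 11 fibroblast markers summed to 39000 to 45917 CPM in KO and 54304 to 57731 CPM in WT, and 10 of them were lower in KO. The largest parts of that sum were the matrix genes *Fn1*, *Col1a1*, *Col1a2* and *Col3a1*, averaging 12703, 12481, 8657 and 5176 CPM in KO. Every library also held endothelial, macrophage and cardiomyocyte transcripts. The 17 endothelial markers summed to 2226 to 2984 CPM in KO and 626 to 629 CPM in WT, with 15 of 17 higher in KO, a median log2 fold change of 2.55 and *Cldn5* and *Eng* not called. The 20 myeloid markers summed to 1468 to 1506 CPM in KO and 1832 to 1927 CPM in WT, with 13 lower and 2 (*Cd68*, *Irf8*) higher. *Lyz2* alone averaged 828 CPM of that sum in KO and 1110 CPM in WT. In such bulk libraries fewer cells of a type and less RNA per cell cannot be told apart.

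**Figure D1:**
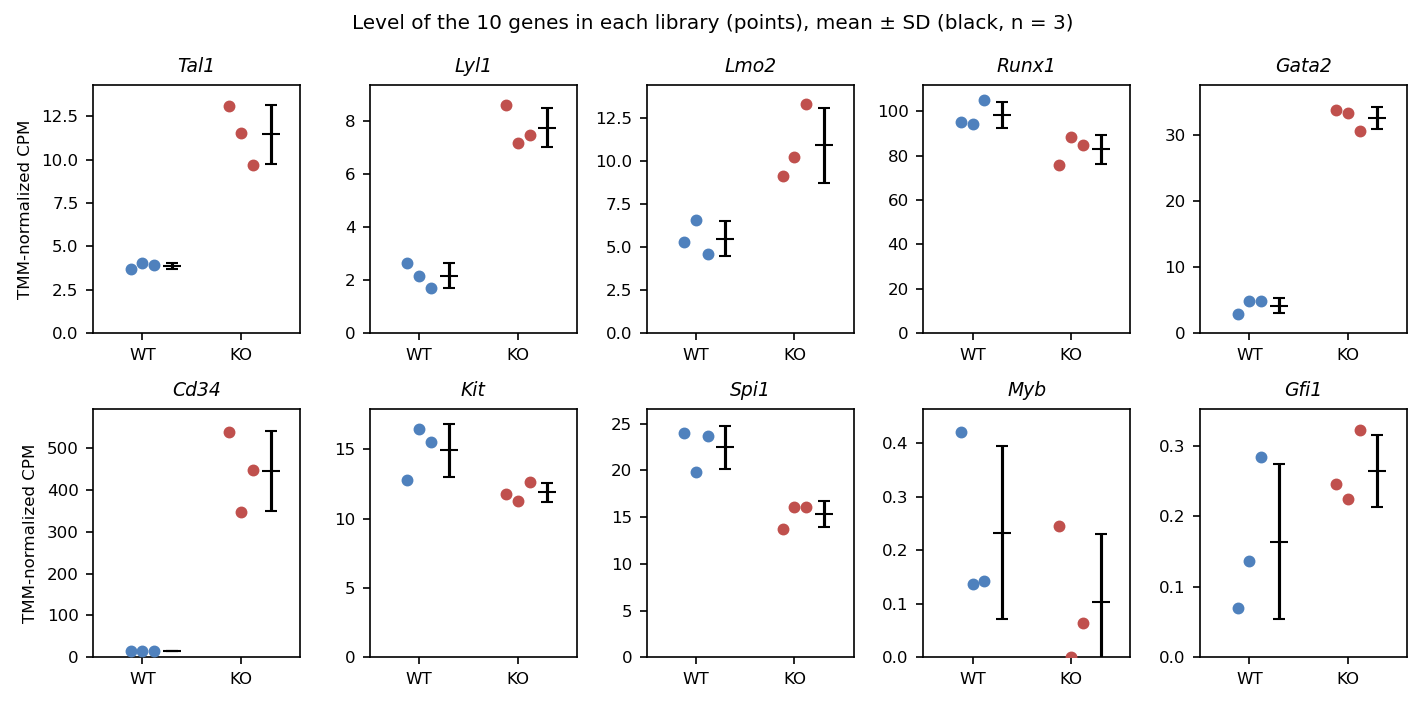
Level of each of the 10 genes in TMM-normalized CPM (vertical axis, from 0, its own scale in each panel) for the 3 WT (blue) and 3 KO (red) libraries, with mean ± SD in black; the lower end of the *Myb* KO bar falls below the axis. *Tal1*, *Lyl1*, *Lmo2*, *Gata2* and *Cd34* are higher in every KO library than in every WT library, *Runx1*, *Kit* and *Spi1* lower in every one, and *Myb* and *Gfi1* overlap.

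For the 4 genes with the largest rises and for *Runx1*, a promoter window each is printed. They show the start-site sequence of genes that rose together beside a gene that did not. *Tal1*, *Gata2* and *Runx1* also have another window, not printed. Each is a RefSeq window on GRCm38.p6 from 250 bases before to 50 bases after a start site, 300 bases in all, read 5′ to 3′ on the gene's strand. Capitals mark matches on either strand to 4 motifs: the E-box CAGATG preferred by TAL1, the motif AGATAA of GATA factors, the RUNX motif TGTGGT, and GAGGAA, which PU.1 and other ETS factors bind. Where the match is on the opposite strand, the capitals show its reverse complement. Every CAGATG also belongs to the wider E-box pattern CANNTG, which was searched too and is not otherwise capitalised.
Tal1, chr4:115056176-115056475, plus strand: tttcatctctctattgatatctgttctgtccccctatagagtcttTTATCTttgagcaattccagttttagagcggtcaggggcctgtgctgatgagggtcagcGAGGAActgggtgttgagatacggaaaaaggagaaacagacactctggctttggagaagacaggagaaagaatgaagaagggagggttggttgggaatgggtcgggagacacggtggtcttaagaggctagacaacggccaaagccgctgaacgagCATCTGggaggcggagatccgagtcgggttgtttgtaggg
Lyl1, chr8:84701207-84701506, plus strand: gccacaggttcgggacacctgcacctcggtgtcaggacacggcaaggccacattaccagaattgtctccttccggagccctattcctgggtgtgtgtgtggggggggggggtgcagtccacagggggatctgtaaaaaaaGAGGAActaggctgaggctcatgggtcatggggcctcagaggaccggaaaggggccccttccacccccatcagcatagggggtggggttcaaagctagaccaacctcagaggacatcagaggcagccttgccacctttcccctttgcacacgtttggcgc
Gata2, chr6:88193641-88193940, plus strand: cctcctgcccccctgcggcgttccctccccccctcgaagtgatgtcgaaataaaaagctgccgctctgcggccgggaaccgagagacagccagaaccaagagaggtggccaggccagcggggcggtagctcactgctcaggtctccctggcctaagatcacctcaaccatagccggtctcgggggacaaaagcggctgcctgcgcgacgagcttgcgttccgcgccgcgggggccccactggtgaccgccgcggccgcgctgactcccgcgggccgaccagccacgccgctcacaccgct
Cd34, chr1:194938571-194938870, plus strand: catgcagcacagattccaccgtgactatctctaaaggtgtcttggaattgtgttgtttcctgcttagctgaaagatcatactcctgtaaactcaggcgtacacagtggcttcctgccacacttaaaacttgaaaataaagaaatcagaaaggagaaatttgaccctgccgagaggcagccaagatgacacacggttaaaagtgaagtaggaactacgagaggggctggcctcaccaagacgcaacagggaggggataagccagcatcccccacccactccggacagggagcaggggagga
Runx1 (distal start), chr16:92826025-92826324, minus strand: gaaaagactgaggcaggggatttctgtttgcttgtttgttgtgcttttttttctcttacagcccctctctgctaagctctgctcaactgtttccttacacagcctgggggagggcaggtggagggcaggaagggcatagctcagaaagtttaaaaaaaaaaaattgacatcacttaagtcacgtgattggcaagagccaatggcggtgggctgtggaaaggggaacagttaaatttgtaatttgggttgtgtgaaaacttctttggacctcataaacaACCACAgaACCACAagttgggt

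The *Tal1* window shown held AGATAA on the opposite strand 205 bases before the start and GAGGAA 146 bases before it. It also held CAGATG, again on the opposite strand, at base 11 counted from the start site. The *Lyl1* window held GAGGAA 110 bases before the start and CANNTG 235 bases before it. The distal *Runx1* window held TGTGGT on the opposite strand at bases 29 and 37 from its start, and CANNTG 167, 136 and 71 bases before it. The *Cd34* and *Gata2* windows shown held none of these letters. Of the windows not printed, that of *Tal1* held none of them and that of *Gata2* held only CANNTG, at base 18 from its start. The proximal *Runx1* window held only GAGGAA, on the opposite strand 46 bases before its start. In all, 8 of the 10 genes had 13 windows in the table, with no entry for *Lmo2* and *Spi1*. Both *Kit* windows overlap almost wholly and hold the same matches, so these are counted more than once among the windows. Of the 13 windows, CANNTG was in 9, CAGATG in 2, AGATAA in 1, TGTGGT in 1 and GAGGAA in 5 (from 4 genes), where 72.3%, 17.2%, 11.2%, 16.8% and 28.3% of all 32851 windows of that length hold them. These matches describe letters in a window only.

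*Tal1* (ENSMUSG00000028717, chr4:115056426-115071755, plus strand) encodes the helix-loop-helix factor needed for all blood lineages. It was at 13.1, 11.6 and 9.67 CPM in the KO libraries and at 3.71, 4.03 and 3.91 CPM in the WT libraries. The WT values were nearly equal and each KO value was more than all of them. The log2 fold change was 1.55 (SE 0.15, edgeR adjusted p = 2.33e-04).

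*Lyl1* (ENSMUSG00000034041, chr8:84701457-84704715, plus strand), the closest paralog of *Tal1*, was at 8.60, 7.20 and 7.48 CPM in KO and at 2.66, 2.18 and 1.71 CPM in WT, again without overlap. Its log2 fold change was 1.82 (SE 0.19, edgeR adjusted p = 3.10e-04). The ratio of *Tal1* to *Lyl1* overlapped between the groups, with 1474 ± 161 CPM of *Tal1* per 1000 CPM of *Lyl1* in KO and 1843 ± 448 in WT (SD, n = 3 each, two-sided exact permutation p = 0.3, where 0.1 is the smallest possible). *Lyl1* shares 4 exonic bases with *Nfix* on the other strand, and *Nfix* averaged 1455 counts in KO and 1998 in WT, so it moved the other way. Whether the counting used strand is not given in the sources used here.

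*Lmo2* (ENSMUSG00000032698, chr2:103957986-103981878, plus strand), the LIM-domain adaptor of the complex, was at 9.17, 10.3 and 13.3 CPM in KO and at 5.32, 6.62 and 4.62 CPM in WT. KO 3 was the highest, and the lowest KO value still exceeded the highest WT value. The log2 fold change was 0.99 (SE 0.19, edgeR adjusted p = 0.00582).

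*Gata2* (ENSMUSG00000015053, chr6:88193891-88207032, plus strand) encodes the zinc-finger factor of progenitors, mast cells and endothelium. Its levels were 33.7, 33.3 and 30.6 CPM in KO and 2.87, 4.91 and 4.83 CPM in WT, so the KO libraries differed little among themselves and stood far above all WT libraries. The log2 fold change was 2.95 (SE 0.18, edgeR adjusted p = 1.78e-05). It rose more than *Tal1*: 2871 ± 296 CPM of *Gata2* stood against each 1000 CPM of *Tal1* in KO and 1077 ± 263 in WT (SD, n = 3 each). These ratios did not overlap, and the two-sided exact permutation p of 0.1 is the smallest that 3 against 3 libraries can give.

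*Cd34* (ENSMUSG00000016494, chr1:194938819-194961279, plus strand), a sialomucin of progenitors and capillary endothelium, was at 537, 347 and 448 CPM in KO and at 15.4, 15.9 and 16.2 CPM in WT. In counts this was 6562, 4624 and 6942 against 220, 233 and 228. The KO libraries spread widely, yet the lowest KO value was many times any WT value. Its log2 fold change of 4.81 (SE 0.16, edgeR adjusted p = 1.94e-06) ranked 99 of the 14084 genes tested. *Gm16897*, which overlaps 148 exonic bases of it on the other strand, had 1 to 6 counts per library.

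*Runx1* (ENSMUSG00000022952, chr16:92601466-92826149, minus strand), the runt-domain factor required for blood stem cells to emerge from endothelium, was at 75.7, 88.1 and 84.8 CPM in KO and at 95.3, 94.2 and 105 CPM in WT. The groups were separated only by the gap between 88.1 and 94.2 CPM. The log2 fold change was -0.24 (SE 0.07, edgeR adjusted p = 0.0381), a call that was lost in 8 of the 14 other ways of processing fixed for this comparison: without KO 1 (adjusted p = 0.0966), KO 3 (0.0760), WT 1 (0.0649), WT 2 (0.0582) or WT 3 (0.118), with library-size scaling (0.0604) and with limma on FPKM (0.116 and 0.111). In CPM per 1000 CPM of the myeloid marker sum it overlapped, at 55.9 ± 3.98 in KO and 51.9 ± 2.69 in WT (SD, n = 3 each, two-sided exact permutation p = 0.3). Per 1000 CPM of the fibroblast marker sum, which fell in the same libraries, *Runx1* was higher in KO without overlap, at 1.94, 1.92 and 1.91 against 1.75, 1.63 and 1.82 in WT (p = 0.1 by the same exact test, the smallest it can give). *Fn1* and *Col1a1* alone averaged 12703 and 12481 CPM of that sum in KO, so this ratio depends on matrix genes.

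*Spi1* (ENSMUSG00000002111, chr2:91082390-91115756, plus strand) encodes PU.1, the ETS factor of macrophages and other myeloid cells. It was at 13.8, 16.1 and 16.1 CPM in KO and at 23.9, 19.8 and 23.7 CPM in WT, without overlap, with a log2 fold change of -0.55 (SE 0.11, edgeR adjusted p = 0.00757). Its receptor target *Csf1r*, which marks macrophages, fell by 0.40 on the log2 scale (edgeR adjusted p = 0.00192). The myeloid marker sum fell in the same libraries: *Spi1* stood at 10.3 ± 0.89 CPM per 1000 CPM of that sum in KO and 11.9 ± 0.91 in WT (SD, n = 3 each), and these ratios overlapped (two-sided exact permutation p = 0.2). Against the pan-leukocyte gene *Ptprc* alone they did not overlap, with 640 ± 23.5 CPM of *Spi1* per 1000 CPM in KO and 722 ± 29.6 in WT (p = 0.1 by the same exact test, the smallest it can give).

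*Kit* (ENSMUSG00000005672, chr5:75574916-75656722, plus strand), the receptor for stem cell factor, was at 11.8, 11.3 and 12.6 CPM in KO and at 12.8, 16.4 and 15.5 CPM in WT. The WT values were all higher, with WT 1 close to KO 3. The log2 difference was -0.33 (SE 0.12, 95% interval -0.61 to -0.04, edgeR adjusted p = 0.0795) and did not pass the threshold. Without WT 1 it did, at -0.43 (adjusted p = 0.0329).

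*Kit* is also a mast cell gene, and the mast cell markers were read beside it. Of 11 such markers, 5 (*Cpa3*, *Tpsb2*, *Mrgprb1*, *Mrgprb2* and the IgE receptor chain *Fcer1a*) had 0 counts in every library and 7 had at most 3. The list summed to 7.20 to 7.87 CPM in KO and 0.68 to 2.52 CPM in WT, a difference made by *Tpsab1*, a mast cell tryptase with 78, 77 and 111 counts in KO and 0 in all 3 WT libraries. *Tpsab1* has a close copy in *Tpsb2*, so its reads may not be uniquely placed.

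*Myb* (ENSMUSG00000019982, chr10:21124936-21160905, minus strand) and *Gfi1* (ENSMUSG00000029275, chr5:107716657-107726036, minus strand) encode factors of blood progenitors. *Myb* had 3, 0 and 1 counts in KO and 6, 2 and 2 in WT. *Gfi1* had 3, 3 and 5 counts in KO and 1, 2 and 4 in WT. Both fell below the filter and both overlapped (two-sided exact permutation p = 0.4 and 0.3 on CPM), so a difference was not detectable at this depth, where a count of 0 allows up to 3 counts, or 0.196 to 0.249 CPM.

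**Figure D2:**
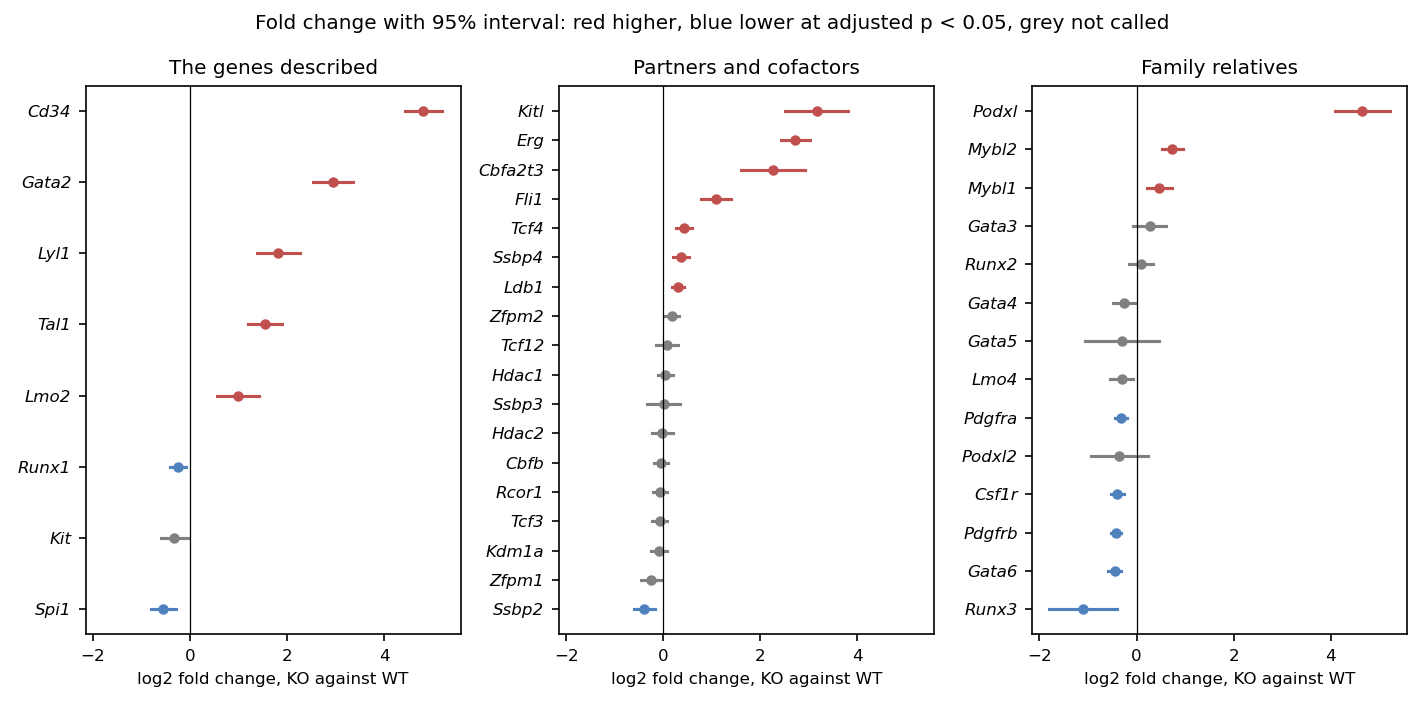
Log2 fold change of KO against WT (horizontal axis) with its 95% interval from the edgeR fit, for the 8 genes tested, their 18 partners and cofactors and the 14 family relatives that were tested; red is higher and blue lower at an adjusted p under 0.05, grey not called. *Cd34* at 4.81, *Podxl* at 4.65 and *Kitl* at 3.16 lead the 3 panels.

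Per unit of gene length, measured as the FPKM the authors deposited, *Cd34* was the highest of the 10 in KO at 45.7 ± 10.0 FPKM (SD, n = 3), and *Spi1* was the highest in WT at 6.71 ± 0.71. In KO, *Spi1* (4.69), *Runx1* (4.60) and *Lyl1* (4.36) followed, and neighbours in that order overlapped; *Gata2* (3.86), *Lmo2* (1.64) and *Tal1* (1.14) came next, then *Kit* (0.93), which overlapped *Tal1*. In WT, *Runx1* (5.32), *Cd34* (1.59) and *Lyl1* (1.20) followed *Spi1*, then *Kit* (1.14), *Lmo2* (0.81), *Gata2* (0.49) and *Tal1* (0.38). There, the overlapping neighbours were *Lyl1* with *Kit* and *Gata2* with *Tal1*. *Gfi1* and *Myb* were at most 0.0774 FPKM in any library. *Cd34* thus made up 68.2% of the summed FPKM of the 10 in KO and 8.98% in WT.

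The order depends on the length used. The length implied by the deposited values exceeded the longest GENCODE M21 transcript for 9 of the 10 genes, all but *Lyl1*, which matched it at 1800 bases. With the merged exonic length of GENCODE M21 instead, *Cd34* stayed highest in KO (61.6 FPKM) and *Spi1* in WT (8.23), but *Gata2* (6.09) lay above *Spi1* (5.75) and *Lmo2* (5.10) above *Lyl1* (4.36) in KO, and *Lmo2* (2.52) above *Cd34* (2.14) in WT.

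The 5 genes that rose were next read against the endothelial marker sum, which rose in the same libraries. *Cd34* stood at 180, 156 and 175 CPM per 1000 CPM of endothelial markers in KO and at 24.6, 25.4 and 25.8 in WT, and *Gata2* at 12.7 ± 1.97 in KO and 6.70 ± 1.84 in WT (SD, n = 3 each), without overlap. In ratio to the summed markers they were 6.74-fold and 1.90-fold higher. *Tal1* was lower in ratio in every KO library, at 4.39, 5.19 and 3.77 against 5.92, 6.43 and 6.22, and so was *Lmo2*, at 3.07, 4.62 and 5.21 against 8.49, 10.6 and 7.35. *Lyl1* overlapped, at 2.88, 3.24 and 2.92 against 4.25, 3.49 and 2.71. The two-sided exact permutation p was 0.1, the smallest possible, for each but *Lyl1* (p = 0.4). The sum depends on its members: *Eng*, which was not called, averaged 268 CPM of it in WT and 265 CPM in KO. Against *Pecam1* alone, an endothelial adhesion molecule at 39.5 CPM in WT and 622 CPM in KO, *Cd34* was still higher in ratio, at 709 ± 36.0 CPM per 1000 CPM in KO and 404 ± 46.3 in WT (SD, n = 3 each), 1.76-fold. *Gata2* turned the other way, at 53.3 ± 9.98 in KO and 108 ± 35.9 in WT. *Tal1*, *Lyl1* and *Lmo2* were also lower against *Pecam1*, at 18.6, 12.6 and 17.9 in KO and 99.0, 54.9 and 140 in WT. None of these 5 ratios overlapped between the groups (two-sided exact permutation p = 0.1 each, the smallest possible). This second measure was extended to all 5 genes after their values were seen. The part of the endothelial transcripts in these results was not tested.

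**Figure D3:**
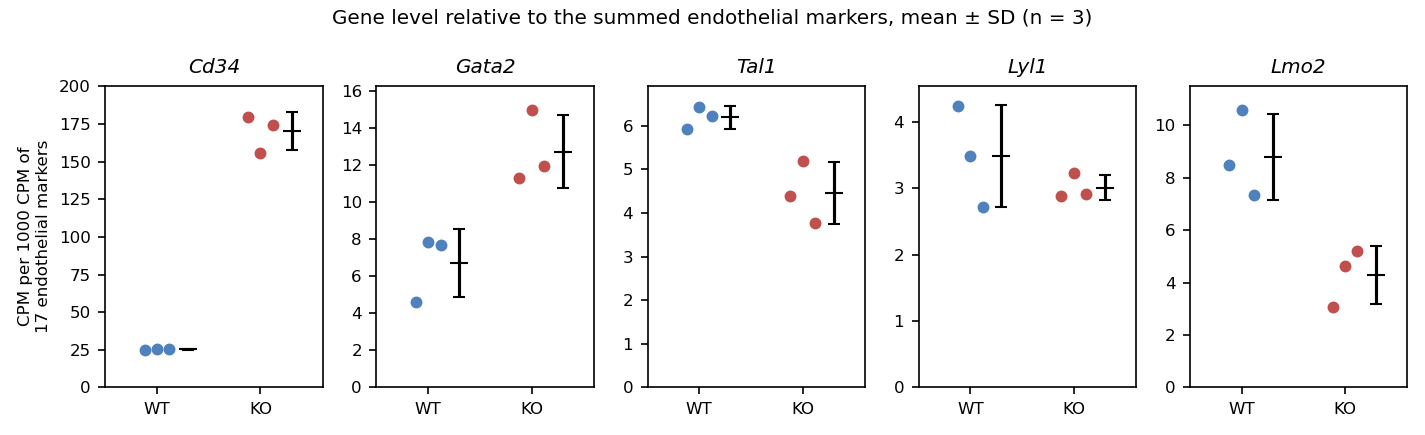
CPM of the 5 genes that rose per 1000 CPM of the 17 summed endothelial markers (vertical axis, from 0), by library, with mean ± SD (n = 3 libraries) in black. *Cd34* and *Gata2* are higher in every KO library, *Tal1* and *Lmo2* lower in every one, and *Lyl1* overlaps; against *Pecam1* alone *Gata2* was lower in KO.

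Among 18 partners and cofactors, all of which were tested, 7 were higher and 1 lower in KO (17.7% and 12.5% of all genes tested), and their median log2 fold change was 0.06. The ETS factors that bind with the complex rose: *Erg* was at 48.9, 38.3 and 45.6 CPM in KO and 7.49, 6.89 and 5.69 in WT (log2 fold change 2.72, SE 0.13), and *Fli1* was at 28.3, 25.4 and 34.0 against 14.1, 15.4 and 11.9 (1.08, SE 0.14). *Cbfa2t3*, the ETO2 corepressor that binds TAL1 complexes, rose by 2.26 (SE 0.29). Smaller rises were measured for the bridging factor *Ldb1* (0.30), its stabiliser *Ssbp4* (0.36) and the E protein gene *Tcf4* (0.42), and *Ssbp2* fell by 0.39. The other E protein genes *Tcf3* (-0.07) and *Tcf12* (0.08), the RUNX partner *Cbfb* (-0.05) and the corepressor genes *Rcor1*, *Kdm1a*, *Hdac1* and *Hdac2* (-0.09 to 0.04) were not called, nor were *Zfpm1*, *Zfpm2* and *Ssbp3*. The edgeR adjusted p of the 8 called genes ran from 8.35e-06 to 0.0157. The call of *Ssbp2* was lost without KO 3 (adjusted p = 0.0522) and without WT 2 (0.0533).

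The ligand of *Kit* moved while the receptor did not pass the test. *Kitl*, encoding stem cell factor, was at 106, 49.9 and 58.7 CPM in KO and at 8.12, 7.51 and 8.25 CPM in WT. KO 1 was the highest by far, and each KO library exceeded all WT libraries. The log2 fold change was 3.16 (SE 0.28, edgeR adjusted p = 1.38e-04). *Kitl* is expressed by endothelium and by fibroblasts.

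Of 22 family relatives, 14 were tested, 3 were higher and 5 lower (21.4% higher, near the 17.7% of all genes tested, of which 12.5% were lower), and the median log2 fold change was -0.30. *Podxl*, the CD34-family sialomucin podocalyxin of endothelium and podocytes, was at 263, 171 and 217 CPM in KO and 9.24, 11.1 and 5.47 in WT (log2 fold change 4.65, SE 0.25, edgeR adjusted p = 1.09e-05), while its relative *Podxl2* was not called (-0.36). Of the other GATA genes, *Gata6* fell by 0.45, *Gata3* (0.28), *Gata4* (-0.25) and *Gata5* (-0.30) were not called (*Gata4* was called lower without WT 1, edgeR adjusted p = 0.0110), and *Gata1*, the erythroid and mast cell GATA factor, had 0 counts in every library. *Lmo4*, the tested relative of *Lmo2*, was at 86.8 CPM in KO and 108 CPM in WT and was not called (-0.31, edgeR adjusted p = 0.0526), but was called lower without the filter, with DESeq2, with upper-quartile scaling, without KO 3 and without WT 3 (adjusted p 0.0272 to 0.0497). *Runx2* was not called (0.09) and *Runx3* fell by 1.10 at 0.76 CPM in KO and 1.68 CPM in WT, a call lost without any one of KO 1, KO 2, WT 1, WT 2 and WT 3 (adjusted p 0.0578 to 0.0766), with DESeq2 (0.116) or with the replicate number as a block (0.0558). The MYB relatives of proliferating cells, *Mybl1* (0.47) and *Mybl2* (0.73), were higher. *Mybl1* lost its call without KO 3 (adjusted p = 0.0510). The receptor kinases related to KIT, *Csf1r*, *Pdgfra* and *Pdgfrb*, fell by 0.40, 0.32 and 0.42, and *Flt3* was below the filter.

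Of 16 further genes of stem and progenitor cells, 13 were tested, 4 were higher, 2 lower and 7 not called (17.7% of all genes tested were higher and 12.5% lower), and the median of their log2 fold changes was -0.21. *Procr*, the endothelial protein C receptor, was at 560, 374 and 419 CPM in KO and 25.0, 24.9 and 22.4 in WT (log2 fold change 4.23, SE 0.16, edgeR adjusted p = 2.81e-06). *Ly6a*, encoding the Sca-1 antigen found on endothelium, stroma and stem cells, was at 86.1, 70.5 and 87.1 CPM in KO and 1.47, 0.82 and 0.57 in WT, a log2 fold change of 6.40 (SE 0.21). It belongs to a family of close copies, which leaves its level uncertain. *Hhex*, a homeobox factor of hemato-endothelial progenitors, rose by 1.54 on that scale, and *Itga2b*, the megakaryocyte integrin, by 0.93. The call of *Itga2b* was lost without KO 1, KO 3, WT 1 or WT 3 (adjusted p 0.0533 to 0.0781) and with the replicate number as a block (0.0543). *Hlf* and *Thy1* were lower, by 0.92 and 0.47, and *Hlf* lost its call when any one library was left out (adjusted p 0.0596 to 0.139). *Mecom*, *Meis1*, *Ikzf1*, *Ikzf2*, *Vav1*, *Etv6* and *Angpt1* were not called. *Etv6* was at 26.9 and 23.7 CPM in WT 1 and WT 2 but at 72.4 CPM in WT 3, level with 67.3 to 74.7 CPM in KO, and without WT 3 it was called higher (log2 fold change 1.47, edgeR adjusted p = 1.63e-04). *Etv2*, the ETS factor that starts the hemato-endothelial program in the embryo, had 0 counts in every library, and *Slamf1* was below the filter.

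**Figure D4:**
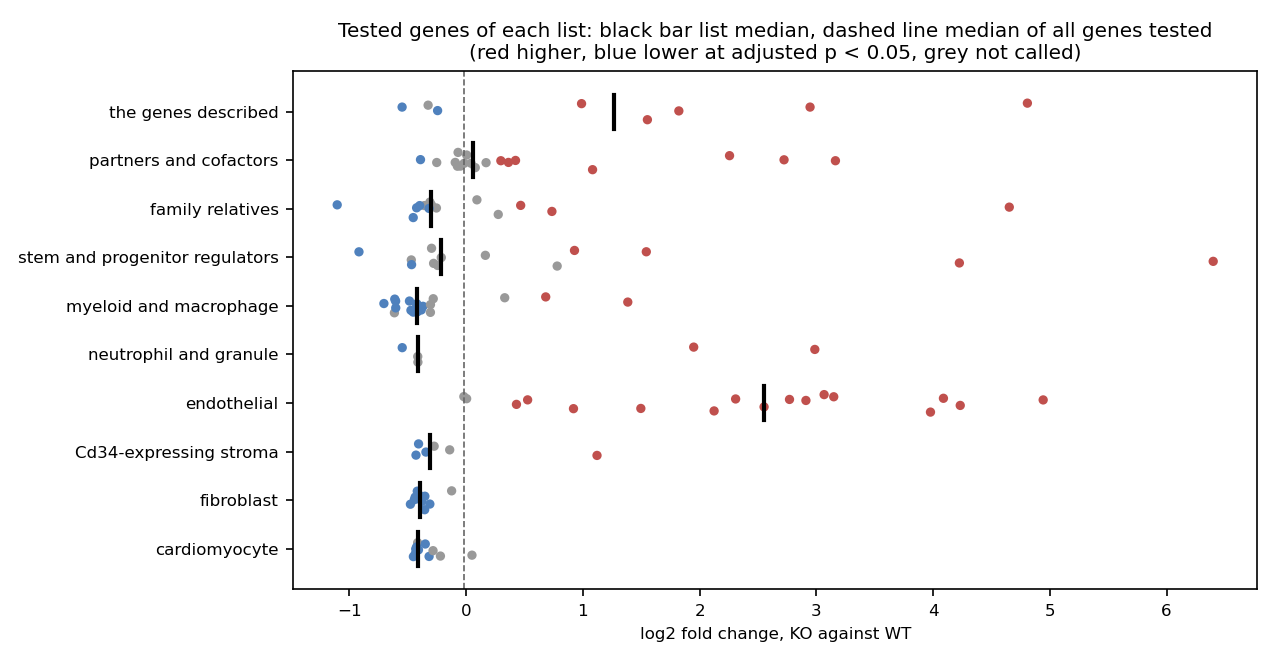
Log2 fold change of KO against WT (horizontal axis) of each tested gene in the gene lists with at least 5 such genes (1 point per gene), with the list median as a black bar and the median of all genes tested, -0.02, drawn as a dashed line; *Tpsab1*, *Gp1ba* and *Ly6c1*, at no more than 3 counts in each WT library, are left out. The 8 tested of the genes described have a median of 1.27, below the endothelial list at 2.55 and above the myeloid, fibroblast and cardiomyocyte lists near -0.4.

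Lymphocyte markers were at or near 0, with 7 of 12 at 0 counts in every library, among them *Cd3e* and *Cd8a*, and no gene of the list was tested. The red cell markers *Slc4a1* and *Hbb-bt* were also at 0 throughout. The Cd34-expressing stromal markers, another source of *Cd34* in the heart, were mixed: *Pi16* rose by 1.12, a call lost without KO 1, KO 3, WT 1 or WT 3 (adjusted p 0.0510 to 0.0581), and *Ly6c1*, at no more than 3 counts in each WT library and 109 CPM on average in KO, was higher, whereas *Dpp4*, *Cd248* and *Dpt* fell by 0.43, 0.41 and 0.34. The call of *Cd248* was lost without KO 1, KO 3 or WT 2 (adjusted p 0.0558 to 0.0698), and that of *Dpt* without any one library but KO 1 (0.0585 to 0.143), with library-size scaling (0.0694) and with limma on FPKM (0.0723 and 0.0715). The part of these cells in the level of *Cd34* was not tested.

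The genes whose profile over the 6 libraries lay closest to each member, by the root mean square difference of mean-centred log2(CPM + 0.5) values, were named by rule. For *Cd34* they were *Ifi202b* (0.10), *Nos3* (0.16) and *Hoxb7* (0.18), and for *Gata2* *A530016L24Rik* (0.13), *Fgd5* (0.16) and *Gimap1* (0.17). *Tal1* lay closest to *Slc16a13* (0.07), *Gm16096* (0.08) and *Ociad2* (0.10), and *Lmo2* to *Dclk2* (0.08), *Olfm1* (0.11) and *Cdc7* (0.11). *Cyth4* (0.12) and *Cd9* (0.13) were among the 3 closest to *Lyl1*. The closest genes were *Srm* (0.03) for *Runx1*, *Nupr1* (0.05) for *Spi1* and *Tnfrsf26* (0.04) for *Kit*. With 6 libraries in 2 groups, this measure follows mainly the size of the difference between the groups. *Nos3*, the endothelial nitric oxide synthase, is itself one of the 17 endothelial markers.

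The small differences were also read under another scaling. When the libraries were instead scaled on 32 cardiomyocyte and myeloid markers, a choice made after seeing the data, the median of all genes tested moved by 0.39 and 8467 genes were called higher and 52 lower, against 2488 and 1760 with TMM. Under that scaling *Runx1* turned to 0.15 and *Kit* to 0.07, neither called, and *Spi1* stayed negative at -0.16 (edgeR adjusted p = 0.230), while *Cd34*, *Gata2*, *Lyl1*, *Tal1* and *Lmo2* were still called higher, from 1.38 to 5.21. Each of the 8 genes moved by about the same shift as the median. The partners were then called 16 higher and 0 lower, the family relatives 5 higher and 0 lower, and the stem and progenitor genes 6 higher and 0 lower. The 11 fibroblast markers, of which 10 were called lower with TMM, were then called 1 higher (*Vim*) and 0 lower, and the stromal genes *Dpp4* (-0.04), *Cd248* (-0.02) and *Dpt* (0.05) were not called. *Kdm5b* turned to 0.18 and was not called (edgeR adjusted p = 0.0979).

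**Figure D5:**
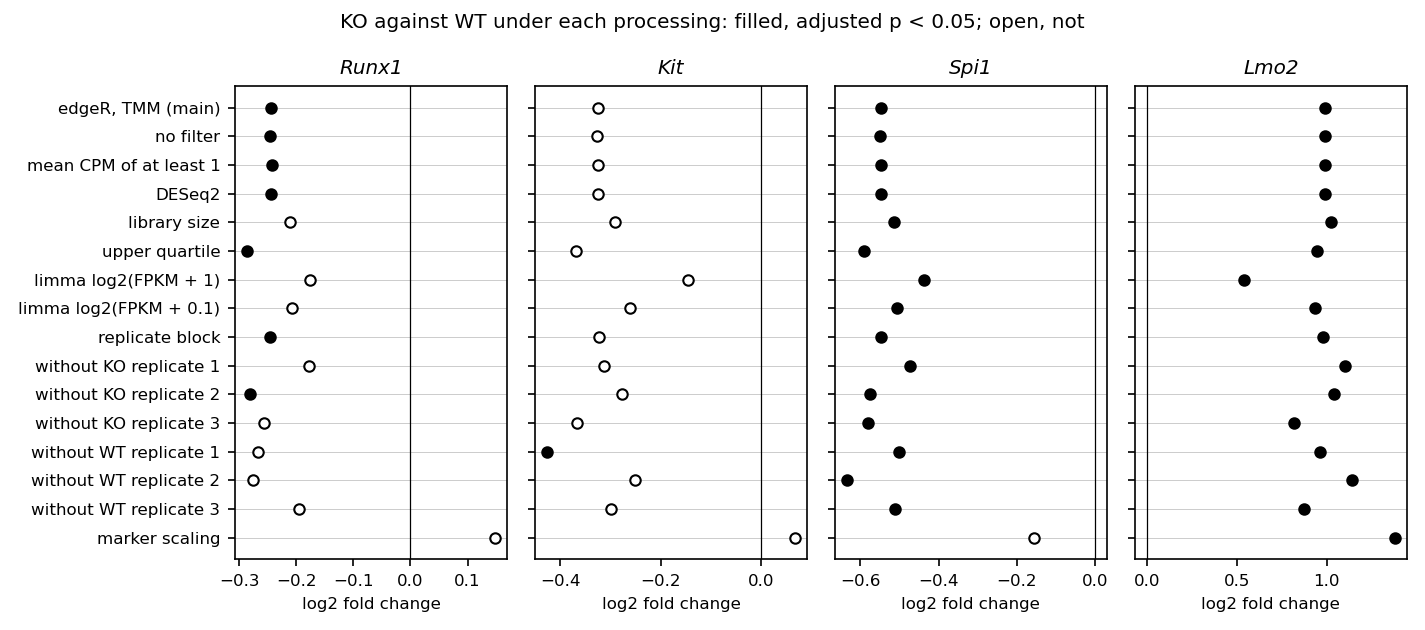
Log2 fold change of KO against WT (horizontal axis, its own scale in each panel) of *Runx1*, *Kit*, *Spi1* and *Lmo2* under the main processing, 14 other ways of processing and the marker scaling; filled points have an adjusted p under 0.05. *Lmo2* is filled throughout, *Spi1* in all but the marker scaling, *Kit* only without WT replicate 1, and *Runx1* crosses 0 under the marker scaling.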

How the data were processed

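The data are RNA-seq of cardiac fibroblasts taken on Day 7 after MI, with 3 KO and 3 WT libraries. The libraries were made with a stranded kit after oligo(dT) enrichment, and the authors aligned them with HISAT2 against mm10; edgeR is also named in the submitters' processing notes. The authors deposited whole-number counts per gene, without normalization, and FPKM values, which scale those counts to gene length and library total. The counting tool, strand setting and annotation release are not given in the sources used here.

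The count model was edgeR 4.0.16, run in R 4.3.3 (TMM, filterByExpr, glmQLFit, glmQLFTest, two-sided, Benjamini-Hochberg over all genes tested), with all 6 libraries and no covariate. Of 34745 genes, 20854 had any count and 14084 were tested. CPM values are TMM-normalized, and marker ratios and their exact permutation tests use them. The 95% intervals used t quantiles from scipy 1.17.1. Totals ran from 12025403 to 15329427 counts. Floors are 3 counts and cover counting error only; intervals of fold changes cover the spread between libraries. Between libraries of the same label, 22.4% to 32.2% of genes passed an unadjusted p of 0.05, more than counting noise gives, so none is a copied or re-sequenced library; separate preparations of 1 RNA or animal cannot be told apart from this.

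The 10 genes and all gene lists were chosen with earlier results of these data known. Named are the 10 genes, *Kdm5b*, list genes and, for each of the 10 with a mean of at least 1 CPM, the 3 tested genes with the closest profile (log2(CPM + 0.5)); some genes of the lists and of this rule are not reported here. For a symbol listed more than once (*Itgam*), the row with the higher mean was used. Promoters are RefSeq windows on GRCm38.p6, matched by symbol for 8 of 10 genes. The fit was repeated with DESeq2 1.42.0, with limma 3.58.1 on log2(FPKM + 1) and log2(FPKM + 0.1), with scaling by library size or upper quartile, unfiltered or filtered at a mean of 1 CPM, blocked on replicate number, and leaving out each library in turn. A scaling on cardiomyocyte and myeloid markers, the merged GENCODE M21 lengths and ratios to *Pecam1* were added after seeing the data. The fits were tested on simulated data.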

Additional observations from a re-analysis of the deposited data

How the results depend on the processing

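Across 14 other ways of processing the data, *Tal1*, *Lyl1*, *Lmo2*, *Gata2* and *Cd34* were called higher and *Spi1* lower in every one, with log2 fold changes of 0.63 to 1.67, 1.29 to 1.99, 0.54 to 1.14, 1.71 to 3.07, 4.15 to 4.97 and -0.63 to -0.44. The lowest sizes of *Tal1*, *Lyl1*, *Lmo2* and *Gata2* came from log2(FPKM + 1), which understates the change of low genes. The number of the 10 genes called lower fell from 2 to 1 with library-size scaling and with limma at either pseudocount, ranged from 1 to 2 when a library was left out, and was 0 under the marker scaling added after seeing the data. That scaling turned *Runx1* to 0.15 and *Kdm5b* to 0.18 (neither called). It called 16 partners higher and 0 lower, 5 family relatives higher and 0 lower, and 0 stem and progenitor genes lower. Of all 14084 genes tested, it called 8467 higher and 52 lower. Partners called lower numbered 2 with upper-quartile scaling (*Zfpm1* added) and 0 to 1 when a library was left out. Stem and progenitor genes called lower numbered 1 without the filter, with DESeq2, with limma at either pseudocount and whenever any library was left out, the call of *Hlf* being lost each time. *Kdm5b* was called lower at -0.26 (edgeR adjusted p = 0.0324) with upper-quartile scaling, and ran from -0.29 (without WT 1, adjusted p = 0.0188) to -0.17 when a library was left out. With the replicate number as a block, 2 partners, 4 family relatives (*Runx3* lost) and 1 stem and progenitor gene were called lower, 3 stem and progenitor genes were called higher (*Itga2b* lost), the melanocyte gene *Mitf* was called higher, *Kdm5b* was called lower at -0.21 (adjusted p = 0.0271), and 3907 genes were called in all against 4248; the calls of the 10 genes did not change. Libraries of the same number correlated by 0.00896, 0.00944 and 0.0315 in their deviations, and those of different numbers by -0.0193 to 0.00768. The same-number values were the highest, but all were close to 0, so the numbers were not taken to pair the samples. The causes of these shifts were not tested. Depth limits *Myb* and *Gfi1*, and 3 libraries per label limit the rest.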

Other observations

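Markers of other blood cells were read as values only. Of 16 erythroid and megakaryocyte markers, 5 were tested. Of these, 2 (*Pf4* and *Gp1ba*) were called higher and 0 lower, where 17.7% and 12.5% of all genes tested were. *Pf4*, a platelet chemokine also made by macrophages, was at 38.9, 27.2 and 29.3 CPM in KO. In WT it was at 3.36, 5.60 and 4.05 CPM, and it was called higher (log2 fold change 2.87, SE 0.21). *Ppbp*, another platelet chemokine, was not called (log2 fold change 0.23, edgeR adjusted p = 0.677). *Gp1ba*, a platelet receptor chain, had 20, 11 and 15 counts in KO and 0 in each WT library, and its partner *Gp1bb* was not called at 0.97 CPM in KO and 2.13 CPM in WT, but was called lower without KO 1 (edgeR adjusted p = 0.0200). *S100a8*, a calcium-binding protein of neutrophils and monocytes, had 74, 53 and 63 counts in KO and 16, 3 and 6 in WT. It was called higher, as was *S100a9* at 19, 11 and 15 counts in KO and 5, 3 and 4 in WT. *S100a9* passed the low-count filter through its KO libraries only, and was not tested with a filter at a mean of 1 CPM. Of the other tested genes of the neutrophil list, *Mmp8* was called lower (log2 fold change -0.55, edgeR adjusted p = 0.0177, a call lost without KO 2, KO 3 or WT 1 at adjusted p 0.0511 to 0.0628). *Csf3r* and *Camp*, both at -0.41, were not called. The median of the 5 tested genes was -0.41, with 2 called higher and 1 lower (17.7% and 12.5% of all genes tested). The granule protease gene *Elane* had 0 counts in every library. *Ly6g*, of the same list, had 15, 10 and 7 counts in KO and 0 in each WT library, and was below the filter. *Epor*, the erythropoietin receptor, was at 0.74, 1.35 and 0.97 CPM in KO and 0, 0.14 and 0.64 CPM in WT. It was not called (edgeR adjusted p = 0.0798). It was called higher without WT 3 (0.0170), the WT library with 9 counts against 0 and 2, and with limma on FPKM (0.0299 and 0.0416). *Epor* and *Gp1ba* passed the low-count filter through their KO libraries only, and neither was tested with a filter at a mean of 1 CPM. Of 7 melanocyte markers, another KIT-dependent lineage, 2 were tested and 0 called by edgeR (1 at an unadjusted p under 0.05); of these *Mitf* (log2 difference 1.26, adjusted p = 0.104) was called higher without KO 2 (0.00876), with the replicate number as a block (0.00945) and under the marker scaling (0.0202), and *Pmel* was not called (0.785).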
